A study of Mus musculus with 24 samples.

Results

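The comparison described here set Ku70-/- mouse embryonic fibroblasts (MEFs) exposed to BPA alone for 24 hr against untreated cells of the same line. It used 6 of the 24 arrays of the series, 3 for each group, chosen by their labels: the arrays of the second of 2 array sets that were labelled BPA 24 hr and control. All 9 arrays of that set are 1-colour Agilent whole mouse genome arrays, and the 3 arrays not in this comparison held cells given BPA for 4 hr. Those 3 arrays also entered the fit, so the standard errors and p-values below draw on the spread within all 9. The first set holds 15 arrays of untreated, KBrO3-treated and co-exposed cells.

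The line is labelled as deficient in Ku70, the DNA end-binding protein encoded by Xrcc6 that starts nonhomologous end joining. Both groups carry that label, and no array is labelled as holding cells with an intact gene. BPA was given at 150 µM, a high dose, and the study's methods add 1 hr of BPA ahead of the labelled 24 hr. The control arrays of the second set carry no time label, and the labels call them untreated without naming a vehicle. The methods describe 3 biological replicates for each condition, and p-values here measure the spread between those samples. Each array holds RNA of a whole culture, so fewer cells of a kind and less RNA per cell cannot be told apart.

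BPA is a monomer of polycarbonate plastics and epoxy resins that binds oestrogen receptors weakly and is known to raise reactive oxygen species at high doses. Cells short of amino acids or under oxidative or protein-folding stress slow translation and translate the transcription factor Atf4, which turns on genes for amino acid uptake and synthesis; this is the integrated stress response. Fibroblasts also take part in innate defence, releasing chemokines and acute phase proteins when NF-kB and C/EBP factors are active.

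A level below is a log2 signal relative to the 75th percentile of its array, and a difference is the mean of the BPA 24 hr arrays minus the mean of the untreated arrays on that scale. A gene was called changed when its probe had a fold above 1.5 and an adjusted p below 0.05 in limma's moderated test. The adjustment was Benjamini-Hochberg over all probes tested, 31169 here, and 1 probe stood for each gene. Of 15883 protein-coding genes tested, 713 were called (4.49% of those tested), 301 of them higher (1.9%) and 412 lower (2.59%) after BPA. Scaling arrays by their median gave 241 in each direction, which moved the share of higher genes among the called from 42.2% to 50%. An unadjusted p below 0.05 was found for 3370 genes (21.2%). Differences over 4-fold were found for 48 of the higher and 72 of the lower genes. Under a stricter threshold, a Bonferroni adjusted p below 0.01 in limma's test, 6 genes passed (0.0378%). Saa3 was higher and Septin12, Nebl, Npr3, Dsc1 and H2bc6 were lower. The study's methods pair that threshold with an error-weighted fit, under which 0 passed. Septin12, Nebl, Dsc1 and H2bc6 were well above background on no BPA 24 hr array, so they were tested through the untreated arrays. With probes above background on all arrays of both groups 3 genes passed, and with no filter on dim probes 0. The arrays of the 2 groups did not overlap for 4078 genes (25.7%), which include all 713 called. The count of 713 depended on which arrays entered the fit. With only the 6 compared arrays it came to 182. It came to 336 without untreated array 1, 451 without untreated array 3, 420 without BPA 24 hr array 1 and 349 without BPA 24 hr array 2, against 490 and 661 without untreated array 2 and BPA 24 hr array 3.

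**Figure D1:**
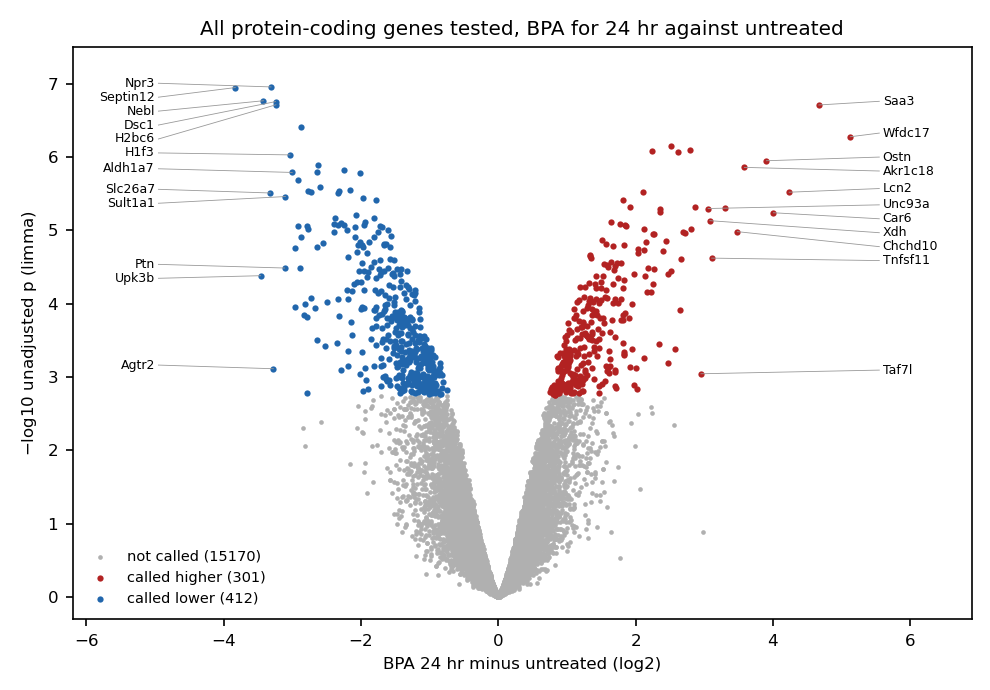
Difference between BPA 24 hr and untreated cells (horizontal axis, log2) against the negative log10 of limma's unadjusted p (vertical axis) for each of the 15883 protein-coding genes tested; red and blue points are the 301 genes called higher and the 412 called lower. The highest rises are the secreted proteins Wfdc17 and Saa3, at 5.13 and 4.67.

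Between 77.0% and 79.4% of non-control spots were well above background on the 6 arrays. Markers of fibroblasts were well above background on all arrays for 10 of 10 genes, with a summed linear signal of 675 to 774 times the 75th percentile in untreated and 533 to 666 in BPA-treated cells. Of these Thy1, a surface marker of fibroblasts, fell by 1.62 (limma adjusted p = 0.039). Markers of other cells were also measured. On all untreated arrays 6 of 8 macrophage, 4 of 5 adipocyte, 3 of 6 myogenic and 3 of 4 endothelial markers were well above background, while the leukocyte marker Ptprc, the endothelial Pecam1 and the muscle markers Des and Myf5 were so on no array. Macrophage markers summed to 1.15 to 1.47 in untreated and 1.07 to 1.23 in BPA-treated cells, and of these the lysozyme Lyz2 fell by 1.69 (limma adjusted p = 0.015). Adipocyte markers summed to 8.58 to 13.1 and 9.01 to 15.8, myogenic markers to 0.15 to 0.209 and 0.135 to 0.175, and endothelial markers to 0.060 to 0.135 and 0.090 to 0.119. The 4 epithelial markers summed to 0.086 to 0.490 in untreated and 0.061 to 0.079 in BPA-treated cells, with untreated array 1 highest: Krt8, a keratin of simple epithelia, read -2.60 on untreated array 1 against -5.30 and -4.69 on the other untreated arrays, and Krt18 read -1.72 against -5.02 and -4.78. The part of such cells in the differences below was not tested. Xrcc6 itself read 0.00, 0.14 and -0.36 in untreated cells and 0.73, 0.23 and 0.04 after BPA, and it was well above background on all arrays of both groups. This signal did not show a loss of the transcript, and where the probe lies relative to the deleted part is not given in the sources used here, so it does not check the label.

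The largest rises belonged to secreted defence proteins. Wfdc17, a small whey acidic protein family member, read -6.79, -7.29 and -8.59 in untreated cells and -2.12, -2.96 and -2.22 after 24 hr of BPA. Its rise of 5.13 (SE 0.43, limma adjusted p = 0.0016) is 34.9-fold, and since 2 of 3 untreated arrays measured it above background, the untreated level is near the limit of the array. Over the alternative settings its difference lay between 1.13 and 5.51. Saa3, an acute phase serum amyloid A protein made outside the liver, read -3.98, -3.41 and -4.62 in untreated cells and 0.96, 0.23 and 0.81 after BPA. The groups lay far apart, and the rise of 4.67 (SE 0.35, limma adjusted p = 0.0010) is 25.4-fold. Lcn2, the lipocalin that binds bacterial siderophores, went from -4.76, -3.03 and -4.57 to 0.36, -0.40 and 0.39, a rise of 4.24 (SE 0.43, limma adjusted p = 0.0027) or 18.9-fold. None of the 3 differed between 24 and 4 hr of BPA past the test, with differences of 0.79, -0.02 and 0.66, and Saa3 stood at 0.22, 0.92 and 0.92 on the BPA 4 hr arrays.

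The other large rises were of enzymes, transporters and signalling proteins. Car6, a secreted carbonic anhydrase, read -3.22, -2.96 and -3.47 in untreated cells and 1.64, 1.10 and -0.36 after BPA, a difference of 4.01 (SE 0.44, limma adjusted p = 0.0035). Every BPA 24 hr array lay above every untreated array, with the third BPA 24 hr array well below the other two. Chchd10, a protein of the mitochondrial intermembrane space, read 0.29, -0.22 and -1.30 in untreated cells and 3.72, 2.72 and 2.78 after BPA, 11.2-fold higher (difference 3.48, SE 0.41, limma adjusted p = 0.0040). Xdh, which makes uric acid from xanthine, went from -3.47, -2.04 and -2.39 to 0.28, 0.66 and 0.41. Its groups did not overlap, and the difference was 3.08 (SE 0.35, limma adjusted p = 0.0039). Ostn, a natriuretic peptide receptor ligand, rose by 3.91 and Akr1c18, a hydroxysteroid dehydrogenase that degrades progesterone, by 3.58. Tnfsf11, the osteoclast-forming cytokine RANKL, rose by 3.11, Unc93a by 3.06 and Taf7l by 2.95. Over the alternative settings Akr1c18 lay between 0.92 and 3.87 and Unc93a between 0.91 and 3.35. Untreated levels were well above background on 2 of 3 arrays for Ostn and Tnfsf11 and on 1 of 3 for Taf7l, and with normexp background correction Ostn and Tnfsf11 differed by 0.51 and 0.20 without passing, or by 1.42 and 1.10 with its parameters shared over the set.

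The largest falls were in genes of receptors, membrane proteins, contractile proteins and histones. Npr3, the clearance receptor for natriuretic peptides, read 0.26, 0.45 and 0.05 in untreated cells and -2.97, -3.17 and -3.04 after BPA. The groups lay far apart, and the difference of -3.31 (SE 0.23, limma adjusted p = 0.0010), 9.92-fold lower, had the smallest SE of the largest changes plotted. Agtr2, the type 2 angiotensin receptor, read 4.12, 4.19 and 3.37 in untreated cells and -0.12, -0.43 and 2.41 after BPA. The third BPA 24 hr array kept a level far above the other two, and the difference of -3.28 carried an SE of 0.67 (limma adjusted p = 0.031). Ptn, the heparin-binding growth factor pleiotrophin, went from 3.33, 1.82 and 3.30 to -0.84, -0.18 and 0.13, a difference of -3.11 (SE 0.42, limma adjusted p = 0.0066).

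Slc26a7, a chloride and bicarbonate exchanger, read -1.64, -1.11 and -1.76 in untreated cells and -5.29, -5.17 and -4.00 after BPA, a difference of -3.32 (SE 0.34, limma adjusted p = 0.0027). Sult1a1, a phenol sulfotransferase, differed by -3.10 (SE 0.32, limma adjusted p = 0.0029), and Aldh1a7, an aldehyde dehydrogenase, by -3.00 (SE 0.28, limma adjusted p = 0.0022). Septin12, a septin of the cytoskeleton, Nebl, the actin-binding protein nebulette, Dsc1, a desmosomal cadherin, and H2bc6, a histone H2B, were well above background on all untreated arrays and on no BPA 24 hr array. Their levels were therefore at least 10.4-fold lower for Septin12, 9.32-fold for Nebl, 2.84-fold for H2bc6 and 2.35-fold for Dsc1. Upk3b, a uroplakin of mesothelial cells, was above background on 1 of 3 BPA 24 hr arrays and differed by -3.46 (SE 0.48, limma adjusted p = 0.0072). Among the untreated arrays Upk3b was lowest, at -5.26, on the array with the high keratin signals, against -4.32 and -4.26.

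**Figure D2:**
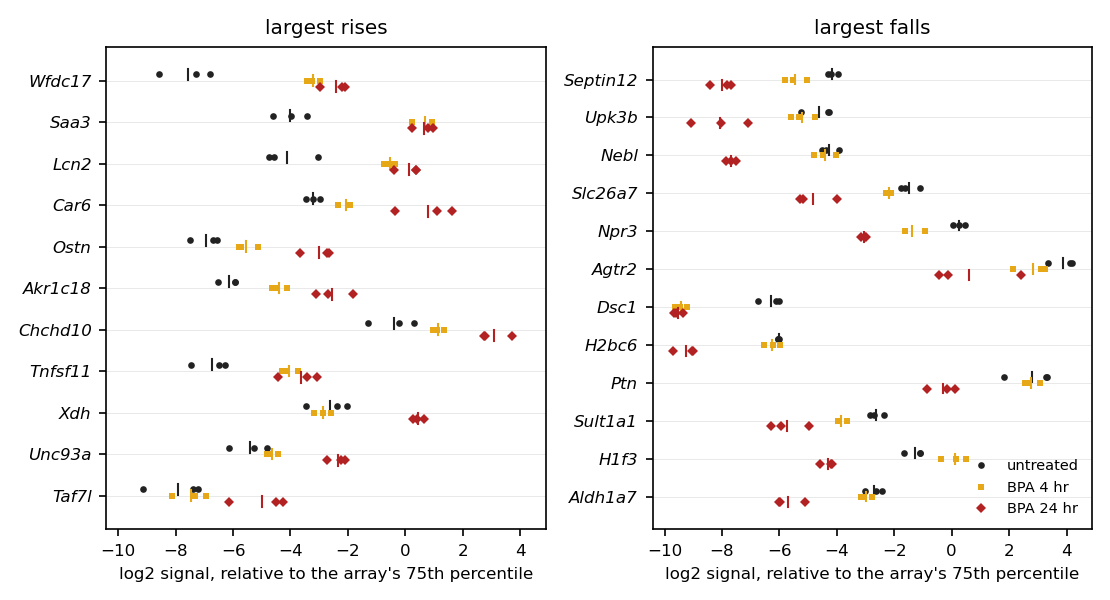
Level on each of the 3 untreated (black), 3 BPA 4 hr (yellow) and 3 BPA 24 hr (red) arrays for 11 of the genes that rose most and the 12 that fell most (horizontal axis, log2 signal relative to the 75th percentile of the array). Each point is 1 array and each short bar a group's mean; Agtr2 and Car6 show 1 BPA 24 hr array apart from the other two, and Npr3 shows the arrays of each group close together.

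Counts of called list members here and below stand against the 4.49% of all genes called, 1.9% higher and 2.59% lower. In the fit as reported, genes of the integrated stress response and amino acid supply held the most called members of any list. This rank did not hold with only the 6 compared arrays. Of 30 members tested, 18 rose and none fell, with 28 at an unadjusted p below 0.05 against 21.2% of all genes, and the median difference over all 30 was 1.06, against 0.02 over all genes tested. Asns, which makes asparagine, read 4.06, 3.86 and 3.93 in untreated cells and 6.06, 5.93 and 5.40 after BPA, 3.6-fold higher (difference 1.85, SE 0.21, limma adjusted p = 0.0039). Chac1, which degrades glutathione, went from 1.72, 1.79 and 1.52 to 4.28, 4.17 and 3.13, a difference of 2.18 (SE 0.29, limma adjusted p = 0.0066). Its groups did not overlap, and the third BPA 24 hr array was the lowest of its group, as it was for Asns.

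The transcription factors of the response rose too: Atf3 by 1.86, Ddit3 by 1.53 and Atf4 by 1.23, with the pseudokinase Trib3, which restrains them, up by 1.94. The serine and one-carbon enzymes Phgdh, Psat1, Psph, Shmt2 and Mthfd2 rose by 1.06 to 1.48. Among amino acid transporters Slc7a3 rose by 1.63, Slc3a2 by 1.27 and Slc7a5 by 0.94, while Slc38a2 differed by -0.36 (limma adjusted p = 0.39). Of the aminoacyl-tRNA synthetases on the list Aars rose by 0.94, and Cars, Eprs, Gars, Iars, Mars1, Nars, Sars, Wars and Yars were 0.43 to 0.97 higher without passing the test. The count of 18 came to 9 without untreated array 1, 10 without BPA 24 hr array 2, 11 without BPA 24 hr array 1 and 19 without BPA 24 hr array 3. With only the 6 compared arrays it came to 4, against 8 for the acute phase list and 6 for the chemokine list. With a replicate block it came to 12, as for the acute phase list. The median of the list was 1.06 and 1.37 on the 2 slides that held an array of each group.

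Promoters of Asns and Chac1, of Slc7a11, a cystine transporter on the NRF2 list, and of Chchd10, one of the largest rises, are shown for the short composite element of amino acid response genes, spelled TGATGNAA, which the factors of this response are known to bind. The letters were searched on both strands of 300-base RefSeq promoters (build GRCm38.p6, 250 bases before to 50 after each start), and this motif was added after the values had been seen. It lies in 3.97% of 32851 mouse promoters and in 6 of 18 promoters of the 16 called members that have one there, and in the promoter of Chchd10, which is on no list. The stress response list was written from general knowledge of this response, so its share is no separate support. The lines give the 250 bases before each start, 5′ to 3′ on the strand of the gene, with the matches in capitals: Asns on the minus strand of chr6:7693210-7693459, Chac1 on the plus strand of chr2:119350992-119351241, Slc7a11 on the minus strand of chr3:50443614-50443863 and Chchd10 on the plus strand of chr10:75932880-75933129.
Asns: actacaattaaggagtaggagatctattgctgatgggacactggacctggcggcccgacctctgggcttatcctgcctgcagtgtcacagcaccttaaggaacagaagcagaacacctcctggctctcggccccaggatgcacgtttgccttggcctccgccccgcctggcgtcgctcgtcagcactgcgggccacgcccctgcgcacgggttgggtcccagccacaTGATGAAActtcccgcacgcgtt
Chac1: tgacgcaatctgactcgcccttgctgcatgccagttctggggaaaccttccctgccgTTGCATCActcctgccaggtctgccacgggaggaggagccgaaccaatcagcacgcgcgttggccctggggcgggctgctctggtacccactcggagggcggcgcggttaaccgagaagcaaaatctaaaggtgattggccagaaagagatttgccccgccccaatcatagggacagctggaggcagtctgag
Slc7a11: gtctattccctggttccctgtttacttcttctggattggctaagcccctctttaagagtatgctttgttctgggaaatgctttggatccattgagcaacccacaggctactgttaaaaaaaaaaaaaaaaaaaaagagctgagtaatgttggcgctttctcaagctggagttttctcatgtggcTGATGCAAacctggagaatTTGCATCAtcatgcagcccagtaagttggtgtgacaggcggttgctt
Chchd10: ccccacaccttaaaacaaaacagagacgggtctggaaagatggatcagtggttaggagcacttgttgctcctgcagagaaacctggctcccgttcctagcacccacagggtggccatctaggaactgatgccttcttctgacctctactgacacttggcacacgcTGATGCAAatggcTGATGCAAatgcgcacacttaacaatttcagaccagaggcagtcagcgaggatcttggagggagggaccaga
Asns and Chac1 hold 1 match each, and Slc7a11 and Chchd10 hold 2. A match describes the sequence, and no binding was measured.

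Of 29 acute phase and innate defence genes 12 were called higher (41.4%, against 1.9% of all genes) and none lower, with a median difference of 1.31. Besides Wfdc17, Saa3 and Lcn2 these included Chil1, a chitinase-like lectin, at 2.72, Serpina3n, a protease inhibitor, at 2.57, and the transcription factors Cebpd and Cebpb at 2.11 and 1.69. Hp, which binds free haemoglobin, rose by 1.92, Slpi by 1.70 and Saa1 by 1.31. Complement C3 and Cfb, at 1.13 and 1.40, and the metallothionein Mt2, at 1.66, lay above the untreated mean without passing the test (limma adjusted p of 0.065, 0.065 and 0.082). S100a9 differed by -0.05. Saa1, Saa2 and Saa3, and Serpina3g and Serpina3n, are close relatives whose probes may share signal. With 1 array left out 8 to 12 of the 29 were called, and the median of the list was 1.16 and 0.94 on the 2 shared slides. Untreated cells of the first array set, labelled 4 hr, carried most of these genes at higher levels: Saa3 read 4.56, 4.48 and 4.51 there, above every array of BPA-treated cells in the second set. The sets were scanned and extracted separately, so this contrast was not tested.

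Chemokines, cytokines and other NF-kB targets were higher for 10 of 34 members, with none called lower and a median difference of 0.40. Il6, the cytokine that drives acute phase genes, read -5.25, -4.74 and -4.86 in untreated cells and -1.88, -2.19 and -3.22 after 24 hr of BPA, 5.74-fold higher (difference 2.52, SE 0.34, limma adjusted p = 0.0067). On the BPA 4 hr arrays it had stood at 0.37, 0.81 and 0.96, so the 24 hr level lay between the untreated and the 4 hr level. Ccl2, a chemokine for monocytes, followed the same order, at 2.82, 3.03 and 2.40 in untreated cells, 6.96, 7.39 and 7.39 at 4 hr and 4.75, 4.54 and 4.45 at 24 hr. Ccl20, Ccl7, Ccl5, Cxcl10 and Cxcl1 were 1.68 to 1.93 higher than in untreated cells, and Cxcl3 1.05. The NF-kB inhibitors Nfkbia and Tnfaip3 differed by 0.11 and -0.10, and Tnf itself by 0.03, and none of the 3 passed. The count was 6 without untreated array 1, without untreated array 3, without BPA 24 hr array 1 or without BPA 24 hr array 2, and 9 without either of the others. The list's median within the 2 shared slides was 0.46 and 0.56.

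Promoters of Il6, Cxcl1 and Lcn2 are shown because these genes rose and carry a match to the NF-kB consensus or to C/EBP (TTGNGNAA), searched on either strand. The NF-kB consensus lies in 1.63% of all promoters and in 4 of the 7 promoters known for the 10 called chemokine genes, and the C/EBP letters in 13.3% of all and in 3 of 9 promoters of the called acute phase genes. The chemokine list was written to hold NF-kB targets, so its NF-kB share is no separate support. Il6 lies on the plus strand of chr5:30012864-30013113, Cxcl1 on the plus strand of chr5:90890995-90891244 and Lcn2 on the minus strand of chr2:32387740-32387989 (GRCm38.p6), printed as above.
Il6: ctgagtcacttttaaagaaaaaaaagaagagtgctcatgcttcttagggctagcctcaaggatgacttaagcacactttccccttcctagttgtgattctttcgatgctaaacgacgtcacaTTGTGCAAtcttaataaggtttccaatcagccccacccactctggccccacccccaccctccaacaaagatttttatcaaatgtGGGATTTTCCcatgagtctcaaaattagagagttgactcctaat
Cxcl1: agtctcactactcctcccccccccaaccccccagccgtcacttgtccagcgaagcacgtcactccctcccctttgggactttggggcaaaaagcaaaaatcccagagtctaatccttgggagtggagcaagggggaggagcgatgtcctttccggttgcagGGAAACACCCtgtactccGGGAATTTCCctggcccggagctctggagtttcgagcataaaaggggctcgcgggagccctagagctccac
Lcn2: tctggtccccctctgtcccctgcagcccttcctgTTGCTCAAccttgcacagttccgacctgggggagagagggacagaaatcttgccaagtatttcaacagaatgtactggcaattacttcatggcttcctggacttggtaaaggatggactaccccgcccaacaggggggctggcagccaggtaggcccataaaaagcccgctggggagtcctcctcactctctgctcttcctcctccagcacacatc
Il6 holds a C/EBP match and then an NF-kB match, Cxcl1 holds 2 NF-kB matches and Lcn2 holds 1 C/EBP match. Of the 47 named genes called higher 37 matched a promoter, 42 in all, and of the 38 called lower 31 matched, with 39 promoters. The palindromic oestrogen response element (in 0.07% of all promoters) matched none of these, the antioxidant response element (TGACNNNGC, 12.4% of all) matched 10 of the 42 and 2 of the 39, and the serum response element (4.51% of all) matched 2 and 3. The NF-kB consensus matched 2 of the 42 and 0 of the 39, the C/EBP letters 7 and 6, and the added amino acid response element 7 and 2.

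Genes that NRF2 switches on under oxidative or electrophile stress moved in part. Of 35 tested, 5 rose and Gstt1 fell, by 1.05, and the median was 0.26. Hmox1, which breaks down haem, read 2.50, 2.46 and 2.24 in untreated cells and 4.24, 4.40 and 3.63 after BPA, 3.22-fold higher (difference 1.69, SE 0.23, limma adjusted p = 0.0067). Slc7a11, the cystine transporter, rose by 1.69, Sod2, the mitochondrial superoxide dismutase, by 1.13, Mgst1 by 1.06 and Srxn1 by 0.98. Slc7a11 is also induced in the integrated stress response and Sod2 by NF-kB. The best known NRF2 targets Nqo1 and Gclm differed by -0.44 and 0.38 and did not pass (limma adjusted p of 0.30 and 0.36). The 6 calls came to 2 without untreated array 1 or 3 or without BPA 24 hr array 1 or 2, and to 3 without untreated array 2. With 1 array left out the median of the list lay between 0.065 and 0.326.

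Of 30 p53 targets 6 rose and none fell, with a median of 0.50. Gadd45a, a growth arrest protein that Atf4 also induces, read 1.70, 1.20 and 0.88 in untreated cells and 3.67, 3.92 and 3.26 after BPA. The groups did not overlap and the difference was 2.36 (SE 0.26, limma adjusted p = 0.0035). The death receptor Eda2r rose by 2.15, the BH3 protein Pmaip1 by 1.56, Sesn2, which is also on the stress response list, by 1.37 (0.71 on its other probe, limma adjusted p = 0.075), Aen by 1.25 and Tigar by 0.92. Cdkn1a, the cell cycle inhibitor p21, was 1.04 higher (limma adjusted p = 0.055), and Mdm2 was 0.64 higher (limma adjusted p = 0.15). The count was 3 without untreated array 1 and 4 to 6 without any other array.

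Of 28 genes of glycolysis and hypoxia 4 rose and none fell, with a median of 0.52. Hk2, the inducible hexokinase, read -1.20, -0.92 and -0.39 in untreated cells and 1.54, 2.48 and 1.56 after BPA, 6.47-fold higher (difference 2.69, SE 0.32, limma adjusted p = 0.0040). The glucose transporter Slc2a1 rose by 1.49, Ankrd37, a hypoxia-induced gene, by 1.97 and Vegfa by 1.26. The lactate carriers Slc16a1 and Slc16a3, listed with pH regulators, rose by 1.36 and 1.03. The list of 20 carbonic anhydrases and pH regulators held 3 rises and the fall of Slc26a7, with a median of 0.10. That median lay between -0.05 and 0.14 with 1 array left out, so its sign was not stable. None of 31 oxidative phosphorylation genes was called by limma or by the study's error-weighted fit, and none had an unadjusted p below 0.05. The transcription factor Klf15 and the triglyceride-forming enzyme Dgat2 were the 2 of 17 adipocyte genes that rose, by 1.27 and 1.24 (11.8% called, against 4.49% of all genes). Neither was called by limma without untreated array 1, untreated array 3 or BPA 24 hr array 1.

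Of 28 genes of sterol and fatty acid synthesis 8 fell and none rose, and the median was -0.90. An unadjusted p below 0.05 was found for 22 of them against 21.2% of all genes, and limma called none when the fit held only the 6 compared arrays. Hmgcs1, which feeds the mevalonate pathway, read 4.49, 4.78 and 4.79 in untreated cells and 3.12, 3.58 and 3.31 after BPA, 2.55-fold lower (difference -1.35, SE 0.21, limma adjusted p = 0.010). Its groups did not overlap. Idi1, which makes the isoprene units of sterols, went from 3.79, 3.86 and 3.18 to 2.36, 1.98 and 1.96, a difference of -1.51 (SE 0.23, limma adjusted p = 0.011). Scd2, Elovl6, Fdps, Sqle and Msmo1 fell by 1.31, 1.22, 1.15, 0.96 and 0.95. The regulators Srebf1 and Srebf2 differed by -0.34 and -0.60, without passing. The count was 4 without untreated array 2 or BPA 24 hr array 2, 5 without BPA 24 hr array 1 or 3 and 6 without either other untreated array, and the median within the 2 shared slides was -1.16 and -0.85.

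Histone genes that are transcribed with DNA replication were lower for 6 of 17 members, with none higher and a median of -0.77. H1f3, a linker histone, read -1.12, -1.10 and -1.64 in untreated cells, -0.36, 0.50 and 0.16 at 4 hr and -4.20, -4.60 and -4.17 at 24 hr, 8.2-fold lower than untreated (difference -3.03, SE 0.27, limma adjusted p = 0.0018). Its other probe gave -1.39 (limma adjusted p = 0.072). H1f2 went from 3.33, 3.41 and 2.71 to 1.23, 0.84 and 1.15, a difference of -2.08 (SE 0.23, limma adjusted p = 0.0036), and H2bc4 and H2bc12 fell by 1.34 and 1.13. H2ac6 was called lower but was well above background on 1 of 3 BPA 24 hr arrays, so its fall has no measured size, and it lost its call in 12 of 18 alternatives. The list as a whole varied between arrays: its median relative to the untreated means was -0.10 on the first BPA 24 hr array and -1.72 and -1.06 on the others, and within the 2 shared slides the median of the members' differences was -0.01 and -0.85. Without untreated array 1 or 2, or BPA 24 hr array 2 or 3, 3 members were called. Histone genes are close copies of one another, and most of their RNA lacks a poly(A) tail, so the values are uncertain as to gene.

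Lists of the cell cycle and DNA repair are again read against the 4.49% of all genes that were called. None of 40 replication and S phase genes was called by limma or the error-weighted fit, with 2 at an unadjusted p below 0.05 (21.2% of all genes) and a median of 0.15. Of 30 mitosis genes Kif23, a kinesin of cytokinesis, fell by 1.06, and the median of the list was -0.51, with 15 members at an unadjusted p below 0.05, against the same 21.2%. Mki67 differed by -0.68, Cdk1 by -0.61 and Kif11 by -1.08, and none of these passed. Without untreated array 2 or 3 or without BPA 24 hr array 1 or 2 none of the list was called. Of 32 DNA repair genes that the study tabulated, a list it chose on these samples, limma and the error-weighted fit called none, with 3 at an unadjusted p below 0.05, again against 21.2%, and a median of 0.01. The glycosylase Ogg1 differed by 0.78 (SE 0.24, limma adjusted p = 0.12), Parp1 by 0.01, Polb by -0.12, Brca1 by -0.11 and Xrcc5, the partner of Ku70, by -0.10.

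**Figure D3:**
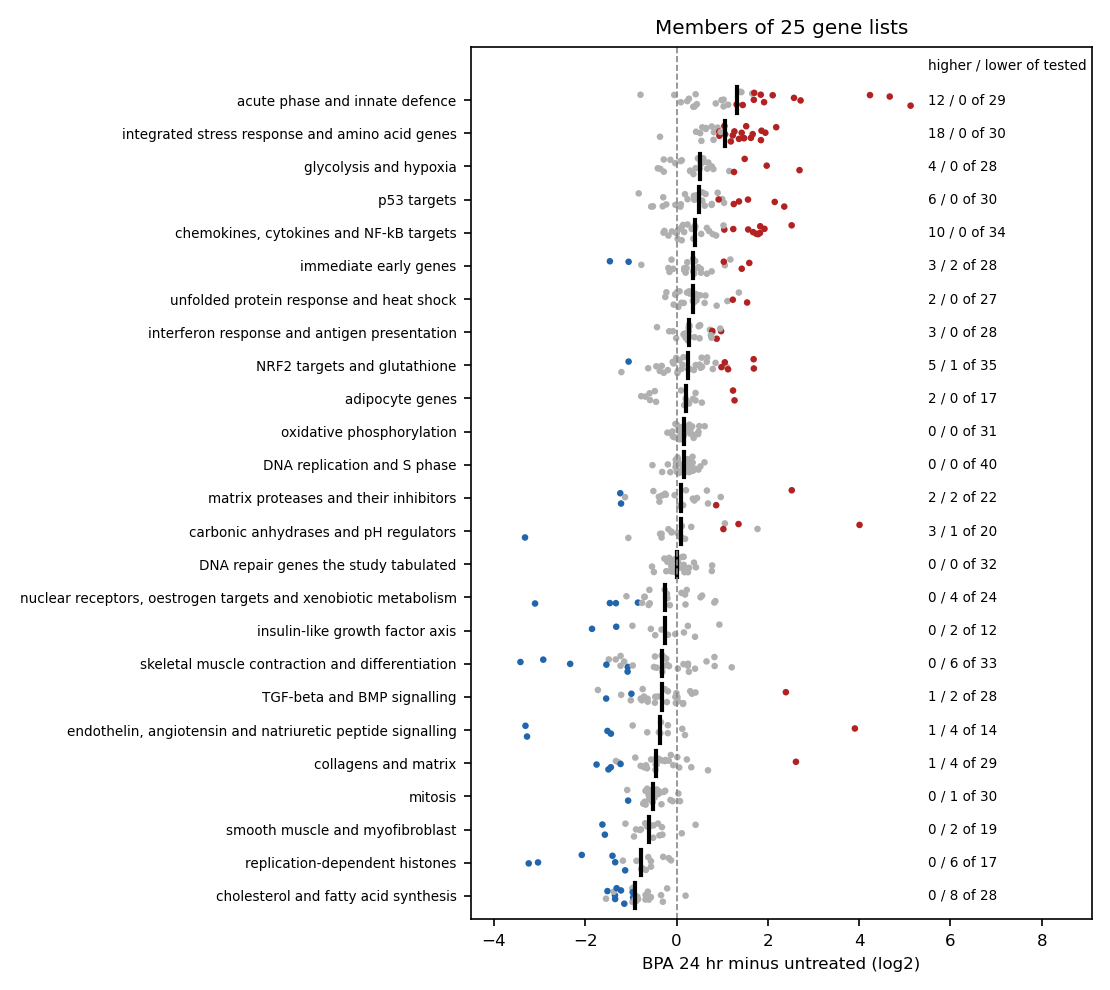
Difference between BPA 24 hr and untreated cells (horizontal axis, log2) for each tested member of 25 gene lists; black bars are list medians, the text at the right gives members called higher and lower of those tested, and the dashed line the median of all genes tested. The stress response and amino acid list has 18 called higher of 30, and the cholesterol and fatty acid list 8 called lower of 28.

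Some contractile and matrix genes fell. Of 33 skeletal muscle genes 6 fell and none rose, with a median of -0.31: Nebl, the myosin heavy chains Myh8 and Myh2, at -2.92 and -2.33, the troponins Tnnt1 and Tnni2, at -1.54 and -1.07, and Acta1, at -1.07. Myh8 read -4.37, -3.63 and -3.34 in untreated cells and -6.67, -6.60 and -6.82 after BPA, with no overlap. The other Myh2 probes gave -3.30 and -1.44 (limma adjusted p of 0.0016 and 0.045). The median of this list was 0.05 and -0.63 on the 2 shared slides, so that its direction changed between slides. Of 19 smooth muscle and myofibroblast genes Lmod1, an actin nucleator, and Itga8, an integrin chain, fell by 1.63 and 1.57, with a median of -0.61 over the list.

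Of 29 collagens and matrix genes 4 fell and Prg4, the joint lubricant lubricin, rose by 2.61 (SE 0.23, limma adjusted p = 0.0018), with a median of -0.45. Col11a1, a fibrillar collagen, read 1.65, 1.93 and 1.93 in untreated cells and -0.19, 0.37 and 0.08 after BPA, a difference of -1.75 (SE 0.21, limma adjusted p = 0.0040). Fmod, Eln and Ogn fell by 1.49, 1.44 and 1.23. The count of 5 was 2 without untreated array 2, untreated array 3 or BPA 24 hr array 2 and 3 without untreated array 1 or BPA 24 hr array 1. Of 22 matrix proteases and inhibitors the collagenase Mmp13 rose by 2.52 (SE 0.22, limma adjusted p = 0.0018) and Mmp11 by 0.87, while the aggrecanases Adamts1 and Adamts5 fell by 1.23 and 1.22. Mmp13 read -2.40, -2.25 and -2.23 in untreated cells and -0.14, 0.43 and 0.39 after BPA, with no overlap. The 4 calls came to 1 without untreated array 3 or BPA 24 hr array 2 and to 2 without untreated array 1 or BPA 24 hr array 1, and Mmp11 lost its call in 13 of 19 alternatives.

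Among 14 genes of endothelin, angiotensin and natriuretic peptide signalling 4 fell, namely Npr3, Agtr2, the angiotensin precursor Agt, by 1.51, and the vasoconstrictor endothelin gene Edn1, by 1.44, and Ostn rose. Of 12 genes of the insulin-like growth factor axis the binding proteins Igfbp3 and Igfbp5 fell by 1.85 and 1.32. The other Igfbp5 probe gave -0.07 (limma adjusted p = 0.94), so the fall rests on 1 of its probes. The count of 2 was 1 without any of the untreated arrays or without BPA 24 hr array 1, and Igfbp5 lost its call in 11 of 19 alternatives. Of 28 TGF-beta and BMP genes the stress cytokine Gdf15 rose by 2.39 (SE 0.30, limma adjusted p = 0.0050), and Id4, a target and inhibitor of helix-loop-helix factors, and Bmp4 fell by 1.54 and 0.99. These 3 are 10.7% of the list, against 4.49% of all genes. Of 28 immediate early genes Fosl1, Myc and Ier3 rose by 1.59, 1.43 and 1.03 and Egr3 and Klf10 fell by 1.46 and 1.05. These 5 calls came to 1 without BPA 24 hr array 2, 2 without untreated array 1, untreated array 3 or BPA 24 hr array 1, and 3 without untreated array 2.

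Genes of oestrogen receptors fell in part. Of 24 nuclear receptor, oestrogen target and xenobiotic genes 4 fell and none rose, with a median of -0.25. Gper1, the membrane oestrogen receptor, read -1.77, -2.06 and -1.96 in untreated cells and -2.88, -3.65 and -3.24 after BPA, 2.51-fold lower (difference -1.33, SE 0.22, limma adjusted p = 0.014). Esr2, the beta receptor, was near background, at -6.52, -6.41 and -6.48 in untreated cells and above background on 1 of 3 BPA 24 hr arrays. It was called lower (limma adjusted p = 0.029) without a measured size, and lost its call in 14 of 18 alternatives. Esrrg, an oestrogen-related receptor to which BPA is known to bind, fell by 1.46 on 1 probe, while its other probe gave 0.05 (limma adjusted p = 0.93). Esr1, the alpha receptor, differed by -0.15, and the aryl hydrocarbon receptor targets Cyp1a1 and Cyp1b1 by -0.70 and 0.56, none passing. With 1 array left out 1 to 3 of the 24 were called, 1 without untreated array 1 and 2 without untreated array 2 or BPA 24 hr array 2. Of 27 unfolded protein response and heat shock genes the endoplasmic reticulum protein Sdf2l1 and the chaperone Hsph1 rose by 1.55 and 1.23. These 2 are 7.41% of the list, near the 4.49% of all genes called, and neither was called without untreated array 1. Hspa5, the reticulum chaperone BiP, differed by 0.42 (limma adjusted p = 0.21). Of 28 interferon and antigen presentation genes Gbp3, Ifi44 and Ifit3 rose by 0.97, 0.88 and 0.78 (10.7% called, against 4.49% of all genes). None of them was called without untreated array 1 or BPA 24 hr array 2, with a replicate block or with only the 6 compared arrays. The other Ifi44 probe gave 0.45 (limma adjusted p = 0.27).

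The 24 hr and 4 hr BPA arrays of the same set were compared to describe how levels differed between those times. The untreated arrays carry no time label, so the length of exposure and time in culture cannot be told apart. The comparison shares the BPA 24 hr arrays with the one above, so its values are given beside and not as separate support. Of 15877 genes tested, 703 were called (4.43%), 204 higher at 24 hr (1.28%) and 499 lower (3.14%). The count came to 331, 230 and 209 without BPA 4 hr array 1, 2 or 3 and to 416 without BPA 24 hr array 2, and the higher calls to 57, 41, 32 and 121. No member of the stress response and amino acid list differed in either direction by limma, with a median of 0.26: Chac1 read 3.85, 4.05 and 3.96 at 4 hr, and Asns 5.39, 5.57 and 5.37. The chemokine list had 26 of 34 members lower at 24 hr than at 4 hr and none higher, with a median of -1.53, with Cxcl2 at -4.99, Ccl20 at -4.05, Icam1 at -3.39 and Il6 at -3.14. The acute phase list had 1 member higher and 3 lower and a median of 0.07. Histones were lower at 24 hr for 8 of 17, with a median of -1.74 and H1f3 at -4.42. Genes that stood higher at 24 hr than at 4 hr included Xdh, at 3.32, Car6, at 2.87, Ostn, at 2.53, Unc93a, at 2.30, Chchd10, at 1.93, and Klf15, at 1.76. Xdh read -2.58, -3.17 and -2.88 at 4 hr, within the untreated range. The cholesterol list had 1 member, Idi1, lower than at 4 hr, at -1.17, and a median of -0.16.

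**Figure D4:**
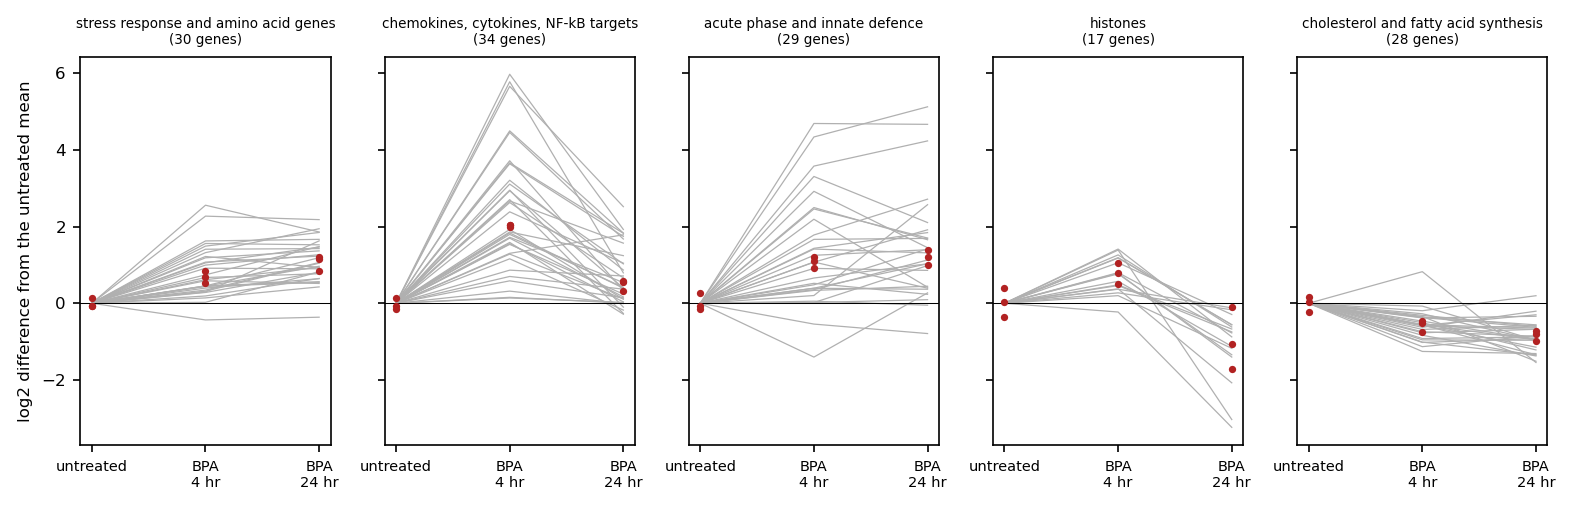
Members of 5 gene lists in untreated cells and after 4 and 24 hr of BPA (vertical axis, log2 difference from the untreated mean). Grey lines are genes and red points the median of the list on each array; the chemokine medians lie at 1.99 to 2.04 at 4 hr and 0.33 to 0.59 at 24 hr, and the stress response medians at 0.53 to 0.85 and 0.83 to 1.21.

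BPA at the same dose was also combined with 20 mM KBrO3, an oxidizing agent that damages DNA bases. BPA was there before, during and after a 1 hr treatment with KBrO3, and those arrays belong to the first set and share none with the comparison above. In KBrO3 with BPA against KBrO3 alone at 24 hr, 1869 of 12779 genes were called (14.6%), 926 higher (7.25%) and 943 lower (7.38%). Scaling arrays by their median moved the share of higher genes among the called from 49.5% to 74.8%. Of the 301 genes that rose with BPA alone 268 were tested there, 159 (59.3%) were called higher and 5 (1.87%) lower, with a median of 0.69. Of the 412 that fell 290 were tested, 187 (64.5%) were called lower and 3 (1.03%) higher, with a median of -0.83. These shares stand against the 7.25% and 7.38% of all genes called in each direction.

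The stress response and amino acid list had 24 of 30 members higher there and none lower, with a median of 1.00, including Trib3 at 2.24, Chac1 at 1.75 and Asns at 1.38. The p53 list had 19 higher and 1 lower of 30, the NRF2 list 12 higher and none lower of 34 and the mitosis list 21 lower and none higher of 30. Among single genes Hmox1 was 2.10 higher, Car6 2.88, Chchd10 2.22 and Wfdc17 3.03 higher, and Agtr2 read 3.71 lower on the log2 scale, H1f3 2.64 and Npr3 1.70 lower. Agtr2 was well above background on 2 of 3 co-exposed arrays, and Slc26a7, which was so on none, was lower without a measured size. The acute phase list moved both ways, with 7 higher and 6 lower of 24 and a median of -0.07. Saa3, Mmp13 and Ccl7 differed there by -0.43, -0.52 and -0.51, which is under the fold limit of 1.5 so that none was called, against 4.67, 2.52 and 1.83 with BPA alone. Replicates of the first set lay closer together, with a median standard error of 0.07 against 0.25.

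**Figure D5:**
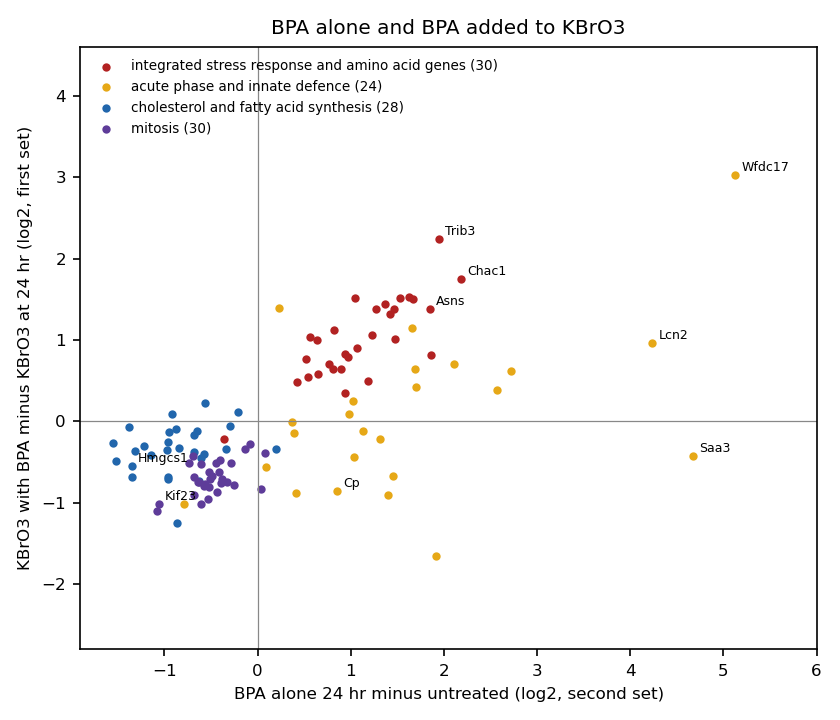
Difference after BPA alone (horizontal axis, log2, second set) and after BPA added to KBrO3 (vertical axis, log2, first set), both at 24 hr, for members of 4 gene lists; each point is 1 gene. Stress response members other than Slc38a2 lie in the upper right, with Trib3 at 1.94 and 2.24, while Saa3 lies far to the right and just below 0.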

How the data were processed

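RNA of Ku70-/- MEFs was labelled with Cy3 and hybridized to Agilent 1-colour whole mouse genome arrays, 1 biological replicate an array. Per the file headers, the authors scanned and extracted the arrays with Agilent Feature Extraction (9.5.3.1 for the first set, 12.0.0.7 for the second; the submitters' processing notes name 12.0), and the deposited intensity of a spot is its background-adjusted, detrended signal, not normalized between arrays. The deposited flags of the same files, coded as other values by the authors' software, mark spots well above background and outliers. The series table held the same numbers for 1080432 of 1080432 values.

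Control spots and outliers were left out, each array's 75th percentile of log2 signal was subtracted, and spots of a probe were averaged. Of 41174 probes, 33673 matched 1 gene in RefSeq tables (28223 and 484 by accession, 3486 by symbol, 1480 by older symbol) and 7501 none, for 18779 protein-coding genes. Probes well above background on all arrays of either group were kept, 31169 here, and the probe with the highest mean stood for its gene. All arrays of a set entered 1 limma fit (limma 3.58.1, R 4.3.3), with Python 3.11.15, pandas 2.3.3, numpy 2.4.6 and matplotlib 3.10.9 for the rest. The adjustment was Benjamini-Hochberg over probes, with a limit of 0.05 and a fold of 1.5. The limma steps were tested on simulated data. Bounds of the form at least N-fold set the bright group's mean against the lowest signals well above background. The number of arrays limits the precision, and intensities give no read depth.

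Named genes were the 12 largest rises and 12 largest falls among called genes whose arrays did not overlap, genes past the Bonferroni limit, up to 4 called members of each of 25 lists with the largest change, and Xrcc6, and a few genes that the rule or the lists hold are not reported here by name; other genes of a list are given by value, and genes outside this rule were chosen after their values were seen. The comparison, the lists and the members were chosen with earlier results of these data known. Promoters came from RefSeq (GRCm38.p6). Second-set slides held 1 or 2 of the compared groups: untreated arrays 1, 2 and 3 lay on slides 3, 2 and 4 and BPA 24 hr arrays 1, 2 and 3 on slides 2, 4 and 5. The fit has no replicate block. The check made here did not show that replicate numbers pair the samples, but with 3 arrays a group it cannot show that they do not. With such a block 392 genes were called, against 713. Alternatives covered scaling, background correction, filters, outliers, slide and replicate blocks, the study's error-weighted fit, thresholds, probe choice and leaving out each array.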

Additional observations from a re-analysis of the deposited data

Results flagged for a closer look

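Among the 85 named genes called at 24 hr, 40 differed between 24 and 4 hr of BPA by limma's test within the second set. The genes were named for their difference from untreated cells on the same BPA 24 hr arrays, so that choice favours genes farther from the untreated mean at 24 than at 4 hr. Among all genes called against untreated, 56 of 301 higher (18.6%) were also called higher than at 4 hr and 172 of 402 lower and tested (42.8%) called lower, beside 1.28% and 3.14% of all genes, with the same arrays shared. The 4 named genes that stood nearer to the untreated mean at 24 hr were the cytokine and chemokine genes Il6, Ccl2, Ccl7 and Ccl20, with differences between 24 and 4 hr of -3.14, -2.67, -1.84 and -4.05.

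Genes higher at 24 than at 4 hr were Xdh (3.32), Car6 (2.87), Ostn (2.53), Unc93a (2.30), Chchd10 (1.93), Akr1c18 (1.86), Klf15 (1.76), Sdf2l1 (1.64), Slc16a3 (1.37) and Ankrd37 (1.33), as log2 differences of BPA 24 hr minus BPA 4 hr. At 4 hr the means of Xdh, Klf15, Sdf2l1 and Slc16a3 lay below the untreated means. Lower at 24 than at 4 hr were the histones H1f3 (-4.42), H2bc6 (-3.01), H1f2 (-2.45) and H2ac6 (-2.19), and the contractile and cytoskeletal genes Nebl (-3.27), Septin12 (-2.52), Myh8 (-2.09), Myh2 (-1.81) and Tnnt1 (-1.23). Of membrane, receptor and transport genes Upk3b (-2.85), Slc26a7 (-2.63), Npr3 (-1.67) and Itga8 (-1.40) were lower. H2bc6, Nebl and Septin12 were well above background on no BPA 24 hr array and H2ac6 and Upk3b on 1 of 3, so these values rest on signals near background and are no measured sizes. Secreted and matrix proteins were Ptn (-3.06), Igfbp3 (-2.03), Agt (-1.81), Eln (-1.53), Igfbp5 (-1.32) and Col11a1 (-1.21). Enzymes were Aldh1a7 (-2.70), Sult1a1 (-1.88) and Idi1 (-1.17), and transcription regulators were Egr3 (-2.53), Id4 (-2.07), Esrrg (-1.94) and Klf10 (-1.25). The control arrays carry no time label, so a change of untreated cells over the day cannot be told apart from the exposure.

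In 3 genes every array pair moved up with BPA alone and down when BPA was added to KBrO3 at 24 hr: Ccl7 at -0.51, Mmp13 at -0.52 and Saa3 at -0.43. These values are under the fold limit of 1.5, so none was called there. Among all genes called with BPA alone, 5 that rose and 3 that fell were called in the opposite direction there. The difference between the 2 settings was not tested, since the sets were processed separately.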

How the results depend on the processing

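For BPA 24 hr against untreated, 713 genes were called, 693 after quantile normalization and 482 after scaling by the median, which moved the median of all genes to 0.13. The count was 470 with no filter on dim probes, 182 with only the 6 compared arrays (180 of them among the 713), 392 with a replicate block, 6 under Bonferroni adjustment and 0 under the methods' error-weighted fit with that adjustment, where 3475 genes had an unadjusted p below 0.05. With slide as a fixed block limma called 0 (3809 at an unadjusted p below 0.05), and with slide as a random block 897. Normexp background correction gave 0 (1307 at an unadjusted p below 0.05). Its fit failed on untreated array 1 and on the third BPA 4 hr array, and it turned Taf7l to -0.45. With normexp parameters shared over the set, chosen after seeing the data, 825 were called. Leaving out single arrays gave 336 to 661. For 24 against 4 hr the 703 calls came to 0 with normexp (1257 at an unadjusted p below 0.05), 0 with slide as a fixed block (1651), 459 with a replicate block, 3 and 11 under Bonferroni adjustment of the error-weighted and the plain fit, and 209 to 576 with 1 array left out, where a group of 2 arrays is assumed to vary like the others. For BPA added to KBrO3 the 1869 calls came to 1116 with normexp, 896 and 1126 under Bonferroni adjustment, 7168 without a fold limit and 1782 to 2125 with 1 array left out.

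Of the 85 named genes called, each kept its direction in every alternative run except Taf7l as given, and the choice of genes whose arrays do not overlap fixes the direction when arrays are left out. With only the 6 arrays 47 stayed below 0.05, with a replicate block 63, after median scaling 72 and with 1 array left out 57 to 78. The residuals of arrays with the same replicate number correlated at 0.65, 0.16 and 0.09, and 1 of 3 untreated and 1 of 3 BPA 24 hr arrays correlated best with its own number. Members called with a replicate block and with only the 6 arrays were 12 and 4 of the stress response list, 12 and 8 acute phase, 8 and 6 chemokine, 4 and 0 cholesterol, 4 and 4 skeletal muscle, 4 and 3 endothelin and natriuretic peptide, 3 and 3 histone and pH regulator genes each, and 3 and 2 p53, collagen, and glycolysis and hypoxia genes each. They were 2 and 2 for the NRF2, TGF-beta and smooth muscle lists, 2 and 1 for the immediate early, insulin-like growth factor and nuclear receptor lists, 2 and 0 for the adipocyte and unfolded protein lists and 1 and 1 for the proteases. The 3 interferon calls and the 1 mitosis call were lost in both of these limma fits, with 10 and 15 members of those lists at an unadjusted p below 0.05 in the fit as reported. Named genes that lost their call in most of the alternatives run were Agtr2, Bmp4, Ccl20, Dgat2, Eln, Esr2, Esrrg, Fosl1, H2ac6, Ifi44, Ifit3, Igfbp5, Klf10, Mgst1, Mmp11, Pmaip1, Taf7l and Vegfa. Array signals near background limit the rises and falls that start or end there, as marked for 34 called genes dim in 1 group. Other probes of Adamts1, Col11a1, Eda2r, Hmgcs1, Igfbp3, Itga8, Klf15, Mgst1, Myc, Nebl, Slc16a1 and Vegfa had the same sign as the probe used without passing the test.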

Other observations

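The untreated cells of the 2 array sets stood far apart in acute phase genes. Levels are log2 signals relative to the 75th percentile of each array, means of 3 arrays for each group, and the sets were scanned and extracted separately, so no test was made. Saa3 averaged 4.52 in the untreated cells of the first set, which are labelled 4 hr, and -4.01 in those of the second set, and BPA for 24 hr brought it to 0.66. Lcn2 averaged 2.98 and -4.12, Wfdc17 -1.10 and -7.56, Hp 7.79 and 2.31, Il6 0.39 and -4.95 and Ccl2 7.83 and 2.75. Of the 29 acute phase and innate defence genes tested, 25 (86.2%) were more than 4-fold higher in the untreated cells of the first set than in those of the second, with a median difference of 3.88, against 194 of 15883 genes (1.22%) and a median of 0.00 over all genes tested. The other genes that BPA alone raised most varied, with first minus second set differences of 5.37 for Tnfsf11, 4.96 for Unc93a, 4.53 for Akr1c18, 2.47 for Xdh, 0.77 for Taf7l, 0.07 for Chchd10, -0.58 for Ostn and -0.88 for Car6. The rises of acute phase genes described for BPA alone are relative to untreated cells whose acute phase RNA was lower than in the first set. What differed between the untreated cultures of the 2 sets was not tested.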
